A study of Mus musculus with 37 samples.

Results

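Gene expression in the renal corpuscle, the forming filtration unit of the nephron, was set against that in the S-shaped body, the stage of nephron formation that comes just before it, across 15709 genes. Both were taken from embryonic kidneys of wild-type CD-1 mice, an outbred strain, at embryonic day E15.5. The members were chosen by the tissue named for each sample: 4 arrays of renal corpuscle at the capillary loop and maturing stages, and 4 arrays of S-shaped body, together 8 of the 37 arrays of the series. Each array was hybridized with the RNA of 1 pool of about 50 sections from 5 kidneys, cut out by laser capture microdissection, and this RNA was amplified in 2 rounds before labelling. The sex of the embryos is not known, and nothing states whether pools were drawn from the same animals, so p-values measure only a spread between samples. In the 2 main fits that spread was estimated from the arrays of all components of the series, not from these 8 alone. In such pooled tissue, fewer cells of a type and less RNA per cell cannot be told apart.

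A nephron begins as a vesicle of epithelium that bends into the S-shaped body. Its proximal part gives podocytes and Bowman's capsule, its middle part the proximal tubule, and its distal part the loop of Henle and distal tubule. In the capillary loop stage, endothelial and mesangial cells have entered the cleft beside the podocytes, which build foot processes, the slit diaphragm between them and a glomerular basement membrane. The comparison therefore asks which genes separate the forming filter from a precursor that still holds the primordia of all nephron segments.

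Levels are given as log2 of the deposited signal plus an offset of 34.62 after quantile normalization, and differences as renal corpuscle minus S-shaped body on that scale. A gene was called when limma's moderated test gave a Benjamini-Hochberg adjusted p below 0.05 over all genes and the difference was at least 1 in size. A called gene is said to have fallen when it was lower in the renal corpuscle than in the S-shaped body. Replicates are numbered in the order of deposition, and 4 values in a row are those of replicates 1 to 4.

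In markers of the tissues, 2 of the 8 arrays stood with the other tissue. Renal corpuscle replicate 4 correlated most with S-shaped body replicate 2 (r = 0.85 across genes, which are not independent), and S-shaped body replicate 3 correlated most with renal corpuscle replicate 1 (r = 0.846). Correlation did not place every other array with its tissue: renal corpuscle replicate 2 had a median r of 0.903 with the S-shaped body arrays kept and 0.847 with the other corpuscle arrays kept, and correlated most with a medullary interstitium array (r = 0.939), and for renal corpuscle replicate 1 the medians were 0.859 and 0.855. Nphs1, which encodes nephrin, the defining protein of the slit diaphragm (probe set 1422142_at), stood at 11.25, 11.09, 12.59 and 7.37 in the renal corpuscle arrays and at 7.69, 7.67, 12.28 and 7.64 in the S-shaped body arrays. The corpuscle array with the low value is replicate 4, and the S-shaped body array with the high one is replicate 3. Lhx1, a homeodomain factor of early nephron epithelium (1450428_at), showed the mirror image, with 5.53, 8.70, 6.79 and 12.69 in corpuscle arrays and 11.90, 12.68, 5.51 and 12.86 in S-shaped body arrays. All results are therefore given both as labelled, 4 arrays against 4, and without these 2 arrays, 3 against 3. Because the 2 arrays were recognised by the expression of genes tested here, the adjusted p-values of 3 against 3 are a description and not independent evidence. In the other 6 arrays both genes lay on the side of the tissue named in the labels. Wt1, a podocyte and progenitor factor, overlapped between the tissues, at 13.85, 13.26, 13.98 and 13.36 in the corpuscle and 13.32, 12.46, 12.74 and 13.23 in the S-shaped body.

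**Figure D1:**
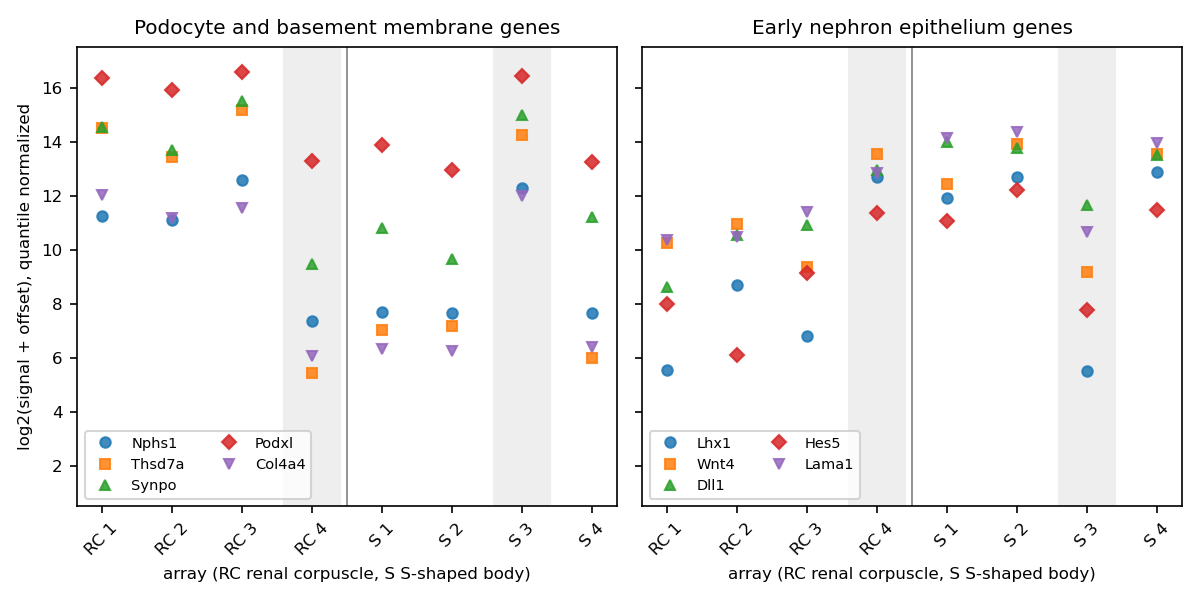
Levels in each of the 8 arrays of 5 podocyte and basement membrane genes (left) and 5 early nephron genes (right), as log2 of signal plus offset, with 1 symbol per gene and array. RC is renal corpuscle, S is S-shaped body, and grey bands mark RC 4 and S 3. Nphs1 lies at 7.37 in RC 4 and 12.28 in S 3, and Lhx1 at 12.69 in RC 4 and 5.51 in S 3, each on the side of the other tissue.

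Each array was then placed on a scale from 0, the mean of the S-shaped body arrays, to 1, the mean of the corpuscle arrays, using genes called when that array and the 2 doubted arrays were left out. These genes were chosen for a difference between the arrays that set 0 and 1. The position of an array left out is therefore partly fixed by that choice. Over 640 genes, renal corpuscle replicate 4 had a median position of 0.18 and was nearer the corpuscle in 25.9% of genes. S-shaped body replicate 3 had a median of 0.77 over these genes and was nearer the corpuscle in 68.3%. The other S-shaped body arrays stood at 0.13, 0.20 and 0.10 over 346, 419 and 313 genes. Renal corpuscle replicates 1 and 3 stood at 0.66 over 540 genes and 0.89 over 245 genes. Renal corpuscle replicate 2, at 0.31 over 1390 genes, was closer to the S-shaped body than to the other corpuscle arrays, although its podocyte genes were high. On the 236 genes called higher in the corpuscle without them, replicate 4 of the corpuscle fell inside the S-shaped body range for 94 genes and inside the corpuscle range for 32. S-shaped body replicate 3 fell inside the corpuscle range for 139 of these genes and inside its own group's range for 21. On the 404 genes called lower, the counts were 116 and 109 for the first array and 199 and 54 for the second.

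**Figure D2:**
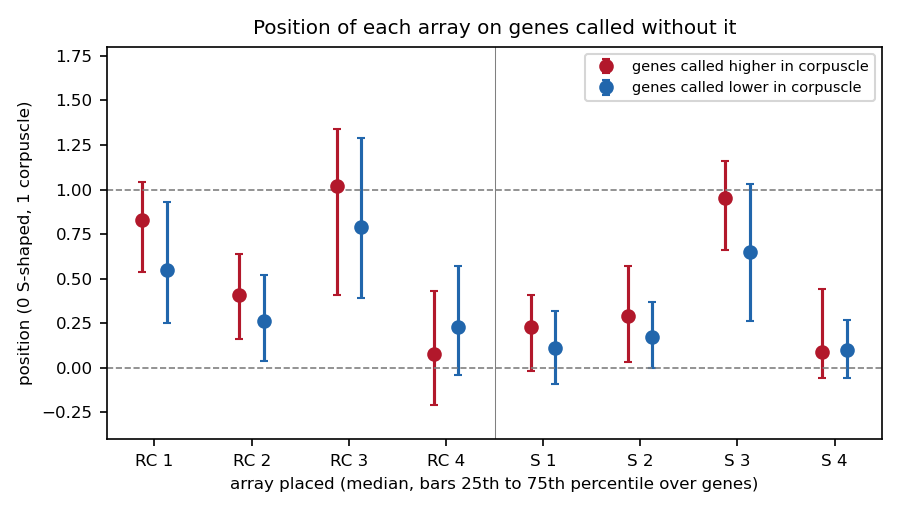
Position of each array between the S-shaped body mean (0) and the renal corpuscle mean (1), shown as the median and the 25th to 75th percentile over genes called without that array, separately for genes called higher (red) and lower (blue) in the corpuscle. RC 4 lies at 0.08 and 0.23, S 3 at 0.95 and 0.65, and RC 2 between the groups at 0.41 and 0.26.

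Lists of marker genes described what else the arrays held. The mean level of the 15 measured nephron progenitor genes was 10.99 in renal corpuscle replicate 2 and 8.37 to 8.90 in the other 7 arrays. Six2, which keeps progenitors undifferentiated, stood at 9.66, 11.81, 10.07 and 9.47 in the corpuscle arrays and at 8.52, 8.84, 8.28 and 8.59 in the S-shaped body arrays. The 16 ureteric tip and collecting duct genes also had their highest mean in that corpuscle array, at 9.76, against 7.85 to 8.72 elsewhere, and Calb1, a calcium-binding protein of ureteric epithelium, reached 9.49, 13.66, 6.19 and 6.59 in the corpuscle and 8.01, 8.82, 7.77 and 9.10 in the S-shaped body. The 18 stromal genes had means of 12.07 in this array and 12.18 in S-shaped body replicate 3, against 9.75 to 10.79 elsewhere. S-shaped body replicate 3 also had the highest mean of the 29 proximal tubule genes, 11.43 against 8.16 to 9.07, led by Cubn, a receptor for protein uptake, at 5.37, 8.01, 5.48 and 5.30 in the corpuscle arrays and 7.79, 7.21, 13.70 and 5.78 in the S-shaped body arrays. The endothelial mean of 19 genes was 12.61, 10.63, 11.27 and 10.64 in the corpuscle and 10.41, 10.41, 11.97 and 10.84 in the S-shaped body. Erythroid means of 6 genes ran from 8.18 to 10.53 in the corpuscle and from 9.09 to 10.76 in the S-shaped body, and macrophage means of 11 genes from 7.64 to 8.64 and from 7.47 to 8.77. The median deposited signal was 225 to 299 in corpuscle arrays and 167 to 259 in S-shaped body arrays. The difference between the 5' and 3' probe sets of Actb, a sign of RNA length, was -1.55, -1.98, -2.28 and -2.57 in the corpuscle and -2.97, -1.85, -2.67 and -2.70 in the S-shaped body on the log2 scale. The same difference for Gapdh was -3.75, -4.8, -4.53 and -4.99 in the corpuscle and -5.81, -5.09, -4.72 and -4.23 in the S-shaped body. Gapdh ordered the arrays differently from Actb. The part of these markers and measures in the gene results was not tested.

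**Figure D3:**
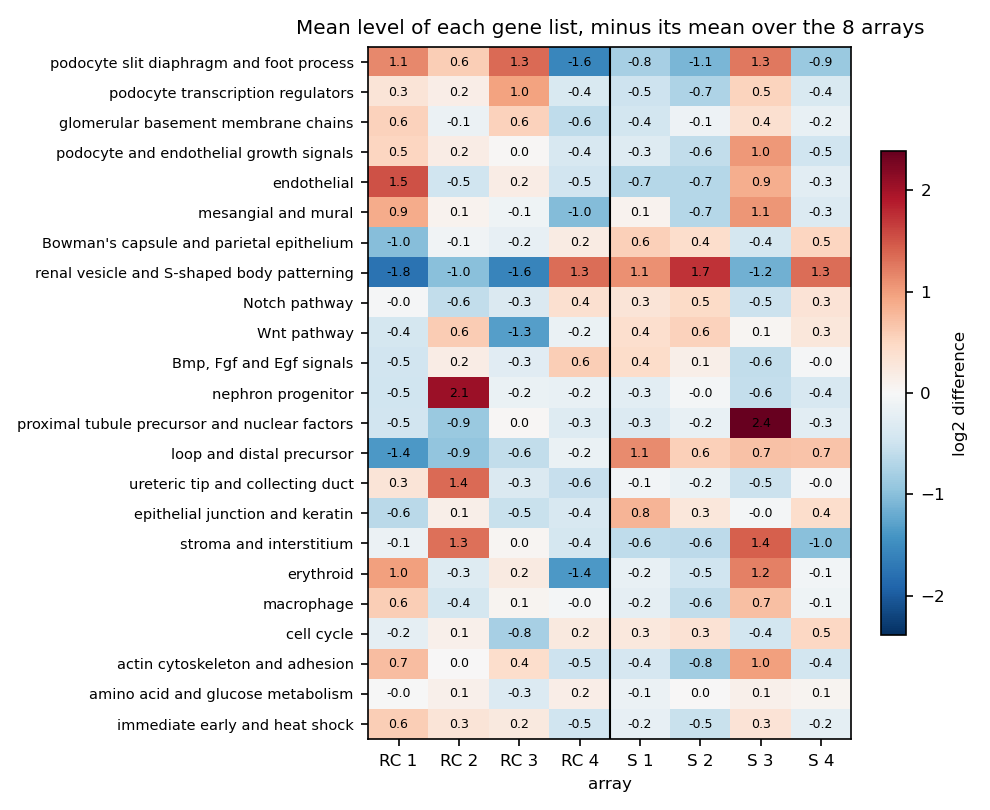
Mean log2 level of each gene list in each array, minus the mean of that list over the 8 arrays, printed in each cell and shown in colour. The podocyte row is negative in RC 4 and positive in S 3, the patterning row is the reverse, and single boxes stand out for progenitors in RC 2 (2.1 above the mean) and proximal tubule in S 3 (2.4 above it).

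As labelled, 91 genes were called, of which 16 (0.102% of the genes tested) were higher and 75 (0.477%) lower in the renal corpuscle. Without the 2 arrays, 640 genes were called, 236 (1.5%) higher and 404 (2.57%) lower. Of all genes, 60 were called in both, 14 higher and 46 lower, and 0 in opposite directions. A further 31 genes were called only as labelled and 580 only without the 2 arrays. Among the 640 genes, 635 had the same sign as labelled, and the median ratio of the labelled to the 3-against-3 difference was 0.612. The 3-against-3 arrays are part of both fits, and the 640 genes were chosen by them, so this agreement was largely fixed in advance. The same holds for the 0 genes called in opposite directions. The median difference over all genes was -0.04 as labelled and -0.05 without the 2 arrays. With arrays shifted to a common median in place of quantile normalization, the median over all genes moved to -0.233 and -0.238. The share of higher genes among those called then went from 17.6% to 6.52% as labelled, and from 36.9% to 20.3% without the 2 arrays. Genes whose groups did not overlap made up 3.56% of all genes as labelled and 17.9% without the 2 arrays.

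The number of calls depended strongly on the arrays that supplied the estimate of spread. All 37 arrays entered the fit as labelled and 35 the other one. When only the 8 arrays entered, limma called 0 genes, with 905 at an unadjusted p below 0.05, against 2090 in the fit of 37 arrays. With only the 6 arrays, 43 genes were called, 28 higher and 15 lower, and 39 of them were among the 640. The median SD of a gene was 0.847 in the 4 corpuscle arrays and 0.639 in the 4 S-shaped body arrays. It was 0.732 and 0.474 in the 3 arrays kept of each, against a residual SD of 0.725 over all arrays. Single arrays moved the count in both directions. As labelled it was 371 without renal corpuscle replicate 2 and 21 without S-shaped body replicate 4. Without the doubted arrays it was 1390 without renal corpuscle replicate 2 and 245 without renal corpuscle replicate 3. Of the genes described here, Nphs1, Thsd7a, Synpo, Podxl, Ptpro, Clic5, Ddn, Sema3e, Cdkn1c, Col4a4, Krt7, Ptger2, Htra1, Vip, Cpne8, Iyd, Ajap1, Lama1, Lhx1, Jag1, Papss2, Car4, Prom1, Cltrn, Dnajc22, Has3 and Kcnc2 were among the 43 called from the 6 arrays alone. When a term for the date in each sample's title was added, limma called only Itgb5, an integrin gene, without the doubted arrays and 0 genes as labelled (796 at an unadjusted p below 0.05), so every other call described here was lost under that setting.

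**Figure D4:**
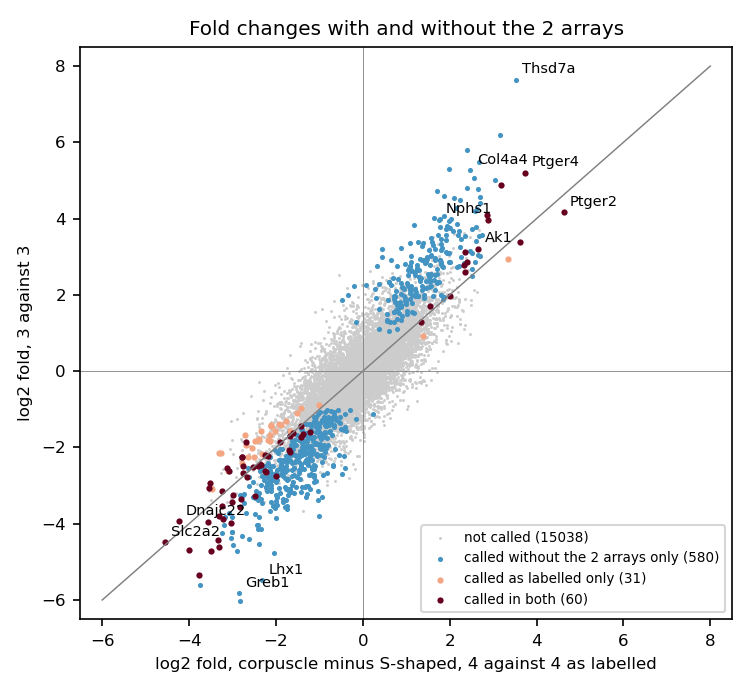
Log2 differences between renal corpuscle and S-shaped body for all 15709 genes, as labelled with 4 arrays against 4 (x axis) and with 3 against 3 (y axis); the diagonal marks equal values. Genes called only without the 2 arrays (580, blue) lie steeper than the diagonal, with Thsd7a at 3.53 and 7.64, while those called in both (60, dark red), such as Ptger2 at 4.63 and 4.17, lie closer to it.

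Podocyte genes made up the clearest group that was higher in the corpuscle. Of 20 measured genes of the slit diaphragm and foot process, 7 were called higher and 1 lower without the 2 arrays, with a list median of 1.20, where 1.5% of all genes were called higher. As labelled none was called and the median was 0.55. Nphs1, Podxl, Ptpro and Synpo on this list were among the markers used to place the 2 doubted arrays. The count of this list is therefore not independent evidence of a direction. Thsd7a, a membrane protein of the podocyte foot process (1456130_at, chromosome 6), had the largest difference of the list. It stood at 14.52, 13.42, 15.18 and 5.43 in the corpuscle arrays and 7.04, 7.17, 14.24 and 5.98 in the S-shaped body arrays. Its 3 corpuscle values were far above the 3 S-shaped body values kept, by 7.64 (SE 0.97, adjusted p = 5.52e-06), while as labelled the groups overlapped and the difference was 3.53 (adjusted p = 0.273). The difference of Nphs1 was 3.97 (SE 0.52, adjusted p = 8.82e-06) without the 2 arrays and 1.75 (adjusted p = 0.319) as labelled. In the other 7 components of the series the mean of Nphs1 was 6.59 to 7.42, below every one of the high arrays here. Synpo, which encodes the actin-binding protein synaptopodin of foot processes, stood at 14.54, 13.67, 15.51 and 9.48 in the corpuscle and 10.80, 9.65, 14.99 and 11.21 in the S-shaped body, and differed by 4.02 (SE 0.67, adjusted p = 0.000421) without the 2 arrays.

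Podxl, the charged surface protein podocalyxin, was already strong in every array of both tissues. It stood at 16.34, 15.91, 16.58 and 13.29 in the corpuscle and 13.88, 12.93, 16.42 and 13.26 in the S-shaped body, a difference of 2.92 (SE 0.74, adjusted p = 0.0194) without the 2 arrays. Ptpro, a receptor phosphatase of the podocyte surface, followed the same pattern with 16.03, 15.94, 16.49 and 12.67 against 13.62, 12.58, 16.07 and 12.73 and a difference of 3.18 (adjusted p = 0.0175). With 1 more array left out, both calls were lost in 3 of 6 fits, those without renal corpuscle replicate 3, S-shaped body replicate 2 or S-shaped body replicate 4 (adjusted p up to 0.0885 for Podxl and 0.0824 for Ptpro). Clic5, a chloride channel family protein tied to ezrin, was higher by 3.84 and Rhpn1 by 4.73. The one member called lower, Cdh13, is a cadherin, with -1.70 (adjusted p = 0.0491), a call lost in 5 of 6 such fits, all but the one without renal corpuscle replicate 2 (adjusted p up to 0.22). Kirrel, the nephrin partner NEPH1, differed by 1.40 (adjusted p = 0.119), Cd2ap, the adaptor that binds nephrin, by 0.46 (adjusted p = 0.567), and Actn4, an actin crosslinker, by -0.20 (adjusted p = 0.882), and no call was made for these. Among the 12 largest non-overlapping calls in this direction, Ddn, which encodes dendrin of the slit diaphragm, was higher by 5.30 (SE 0.91, adjusted p = 0.00054) and Sema3e, a guidance cue, by 5.80 (SE 0.70). In every one of the podocyte genes given here with a call higher, renal corpuscle replicate 4 was below the other 3 corpuscle arrays and S-shaped body replicate 3 above the other 3 S-shaped body arrays. None of these genes was called as labelled. Several were also markers used to place the 2 arrays, so this pattern was largely fixed in advance.

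Of 10 podocyte transcription regulators, 1 was called higher and none lower without the 2 arrays, where 1.5% of all genes were called higher, and none as labelled. That gene was Cdkn1c, which encodes the cell cycle inhibitor p57 of postmitotic podocytes. It stood at 16.60, 16.14, 16.57 and 14.33 in corpuscle arrays and 14.14, 14.47, 16.61 and 13.99 in S-shaped body arrays, a difference of 2.24 (SE 0.33, adjusted p = 9.77e-05) without the 2 arrays and of 1.11 (adjusted p = 0.245) as labelled. The difference was positive for all 10 members without the 2 arrays. It was 0.69 (adjusted p = 0.61) for Wt1, 1.63 (adjusted p = 0.0902) for Tcf21 and 0.73 (adjusted p = 0.602) for Lmx1b, and none of these was called.

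Basement membrane chains were called in both directions. Without the 2 arrays, 2 of 16 chains and other components were called higher and 1 lower, where 1.5% of all genes were called higher and 2.57% lower. None was called as labelled. Col4a4, a collagen IV chain of the mature glomerular basement membrane (1440250_at, chromosome 1), stood at 12.04, 11.16, 11.55 and 6.08 in the corpuscle arrays and 6.31, 6.24, 11.98 and 6.40 in the S-shaped body arrays. Its 3 low S-shaped body values lie near the bottom of the scale. The difference was 5.27 (SE 0.64, adjusted p = 3.82e-06) without the 2 arrays and 2.48 (adjusted p = 0.249) as labelled. Col4a5, its partner chain, was higher by 2.19 (adjusted p = 0.0118), a call lost without renal corpuscle replicate 3 or S-shaped body replicate 4 (adjusted p up to 0.0687), whereas the third chain of that network, Col4a3, was not called at 1.68 (adjusted p = 0.0749). The early chains Col4a1 and Col4a2 differed by -0.01 and 0.08. Lama1, a laminin chain of early nephron basement membranes, stood at 10.35, 10.46, 11.39 and 12.85 in the corpuscle and 14.12, 14.35, 10.65 and 13.94 in the S-shaped body and fell by 3.41 (SE 0.61, adjusted p = 0.000803). The laminin chains of the mature filter, Lama5 and Lamb2, differed by 1.94 and 1.39 and were not called (adjusted p = 0.154 and 0.206).

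Signals between podocytes and vessels were led by Vegfa, the growth factor that draws endothelial cells into the glomerulus. It stood at 12.70, 12.31, 14.42 and 10.67 in corpuscle arrays and 11.39, 10.46, 13.30 and 11.11 in S-shaped body arrays, and the difference was 2.15 (SE 0.49, adjusted p = 0.00881) without the 2 arrays and 0.96 (adjusted p = 0.461) as labelled. The call was lost without renal corpuscle replicate 3 or S-shaped body replicate 2 (adjusted p up to 0.12). It was the only call among 16 genes of this list, where 1.5% of all genes were called higher. Its receptor Kdr differed by 1.48 (adjusted p = 0.381), and Flt1, the other Vegfa receptor, by 0.99 (adjusted p = 0.561). None of the 19 endothelial genes was called in either set of arrays, although 18 of them were positive without the 2 arrays and the list median was 0.99, against 0.40 as labelled and a median of -0.05 over all genes. Pecam1, an endothelial adhesion molecule, differed by 1.91 (adjusted p = 0.164). Of 15 mesangial and mural genes 1 was called higher, where 1.5% of all genes were. It was Tagln, an actin-binding protein of contractile cells, which was higher by 2.87 (adjusted p = 0.0261). With 1 more array left out this call was lost in 4 of 6 fits, those without renal corpuscle replicate 1 or 3 or S-shaped body replicate 2 or 4 (adjusted p up to 0.148). Pdgfrb, the receptor needed by mesangial cells, differed by 0.50 (adjusted p = 0.738). Of 23 genes of the actin cytoskeleton and adhesion, 2 were called higher, where 1.5% of all genes were. They were Synpo, also on the podocyte list, and the tropomyosin gene Tpm2 (1.81, adjusted p = 0.013). The call of Tpm2 was lost without renal corpuscle replicate 1 or S-shaped body replicate 1 or 2 (adjusted p up to 0.0618).

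**Figure D5:**
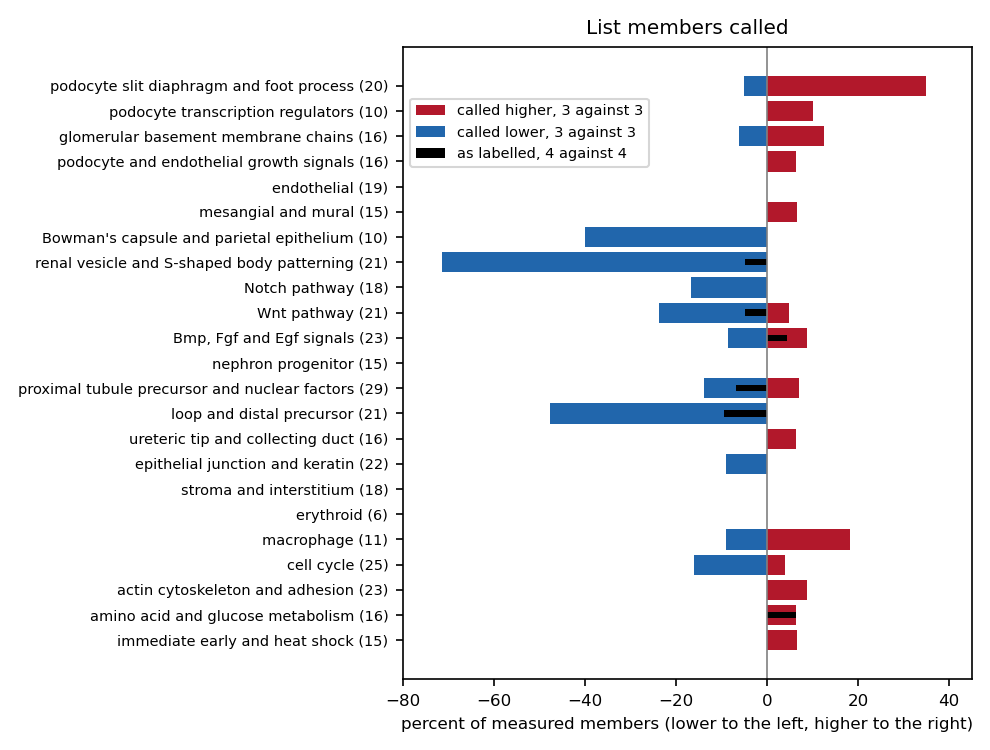
Percent of the measured members of each gene list (number in brackets) called higher (red, right) or lower (blue, left) in the renal corpuscle without the 2 arrays, with the thin black bars for all 8 arrays as labelled. Of 21 patterning genes 15 were called lower and of 20 podocyte genes 7 were called higher, against 1 and 0 as labelled.

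Genes of early nephron patterning made up the group most often called lower. Of 21 measured genes known from the renal vesicle and S-shaped body, 15 were called lower and none higher without the 2 arrays, where 2.57% of all genes were called lower, and the list median was -2.53. As labelled only Papss2 was called, where 0.477% of all genes were called lower, and the median was -1.31. That call was lost in 5 of 8 fits that left out 1 array, all but those without renal corpuscle replicate 2 or either doubted array (adjusted p up to 0.0987). The list was written with knowledge of earlier results of these arrays, so its count is not independent evidence of a direction. Lhx1 fell by 5.47 (SE 0.98, adjusted p = 0.000758) without the 2 arrays, and its difference was -2.31 (adjusted p = 0.43) as labelled. Papss2, an enzyme that makes the sulfate donor, fell by 5.35 and Greb1, named for its response to estrogen, fell by 5.82 (adjusted p = 4.13e-05). Pou3f3, a POU domain factor of the distal nephron, fell by 4.38 (adjusted p = 0.0179), a call lost in 5 of the 6 fits that left out 1 more array (adjusted p up to 0.118). The members that were not called included Sox9, an HMG-box factor of early nephron epithelium, with -2.32 (adjusted p = 0.072), and Tmem100, the one positive member, with 1.02 (adjusted p = 0.392). Of 10 genes of Bowman's capsule and parietal epithelium, 4 were called lower, namely Pax8, Cdh6, Prom1 and Wfdc2, and 2 of these, Pax8 and Cdh6, were also on the patterning list. The calls of Cdh6 and Wfdc2 were lost in 4 of 6 fits with 1 more array left out, for both without renal corpuscle replicate 1 or S-shaped body replicate 1 or 4, for Cdh6 also without S-shaped body replicate 2 and for Wfdc2 without renal corpuscle replicate 3 (adjusted p up to 0.212 and 0.0935).

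The Notch pathway, in which ligands on one cell activate receptors on its neighbour, is needed for the proximal fate of the S-shaped body. Of its 18 measured members 3 were called lower and none higher without the 2 arrays, where 2.57% of all genes were called lower and 1.5% higher, and none was called as labelled. All 3, Dll1, Jag1 and Hes5, were already counted on the patterning list. The ligand Dll1 (1419204_at) stood at 8.60, 10.53, 10.90 and 12.95 in corpuscle arrays and 14.00, 13.75, 11.66 and 13.49 in S-shaped body arrays. Without the 2 arrays it fell by 3.73 (SE 0.69, adjusted p = 0.00113), and as labelled its difference was -2.48 (adjusted p = 0.0859). The ligand Jag1 stood at 13.42, 13.25, 12.33 and 15.25 in the corpuscle and 15.25, 15.20, 12.97 and 15.03 in the S-shaped body and fell by 2.16 (SE 0.45, adjusted p = 0.00378). Of the 2 other probe sets of Jag1, 1 gave -2.84 and was called, and the other gave -0.03. The receptors did not pass the test: Notch1 differed by -1.13 (adjusted p = 0.104) and Notch2, the receptor that nephron segmentation depends on, by -0.63 (adjusted p = 0.479).

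Among the target genes of the pathway, Hes5, a transcriptional repressor, was the one called. Its RefSeq promoter is shown because Hes5 is a direct target of the pathway and was the one target called, a choice made after its values were seen: the 250 bases before the start of the gene, GRCm38.p6, plus strand, chr4:154960673-154960922, 5′ to 3′, with matches to GTGGGAA, a core sequence bound by the Notch effector RBPJ, in capitals on either strand.
Hes5: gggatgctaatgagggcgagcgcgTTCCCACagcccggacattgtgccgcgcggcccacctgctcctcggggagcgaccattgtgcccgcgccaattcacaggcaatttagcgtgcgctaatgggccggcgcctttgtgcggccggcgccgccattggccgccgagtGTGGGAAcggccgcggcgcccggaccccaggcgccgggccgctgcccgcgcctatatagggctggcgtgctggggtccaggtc
The window holds 2 matches, which begin 226 and 83 bases before the start, the first of them on the minus strand. Of 27025 genes with such a window, 6.18% hold at least 1 match and 0.196% at least 2. The share with at least 1 match was 6.73% among the 327 genes called lower that had a window, 6.52% among the 184 called higher and 6.54% among all 12566 tested genes with a window, and the difference between these shares was not tested. A match is a description of letters and not a measured binding site. Hes5 (1423146_at) stood at 7.97, 6.10, 9.14 and 11.35 in corpuscle arrays and 11.07, 12.21, 7.76 and 11.47 in S-shaped body arrays. Without the 2 arrays it fell by 3.85 (SE 0.76, adjusted p = 0.00213), and as labelled its difference was -1.99 (adjusted p = 0.286). The related target genes Hes1 and Hey1 differed by -0.55 (adjusted p = 0.661) and -0.78 (adjusted p = 0.572), and Nrarp, which limits the pathway, by -1.19 (adjusted p = 0.209).

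Of 21 genes of the Wnt pathway, 5 were called lower and 1 higher without the 2 arrays, where 2.57% of all genes were called lower and 1.5% higher, and 1 lower as labelled. Of the 5, Wnt4 was also on the patterning list and Lgr5 on the loop and distal precursor list given below. Wnt4, the ligand that drives the change from mesenchyme to epithelium, stood at 10.26, 10.95, 9.37 and 13.54 in the corpuscle and 12.42, 13.90, 9.16 and 13.53 in the S-shaped body and fell by 3.09 (SE 0.77, adjusted p = 0.0165). Without renal corpuscle replicate 3, S-shaped body replicate 2 or S-shaped body replicate 4 it was not called (adjusted p up to 0.108), the call of Lef1 held only without renal corpuscle replicate 2, and those of Dkk1 and Rspo3 were lost without renal corpuscle replicate 3 (adjusted p = 0.0674) and in 3 of 6 such fits (without renal corpuscle replicate 2 or S-shaped body replicate 1 or 4, adjusted p up to 0.0915). The receptor gene Lgr5 fell by 3.60 (adjusted p = 0.000601), the transcription factor Lef1 fell by 2.48 (adjusted p = 0.0363) and the secreted inhibitor Dkk1 fell by 3.81 (adjusted p = 0.0044). The receptor gene Fzd4 was called lower in both sets and fell by 2.12 (adjusted p = 0.00164) without the 2 arrays and fell by 1.67 (adjusted p = 0.0324) as labelled, but the second call was lost in 5 of 8 fits that left out 1 array (adjusted p up to 0.1), and its probe sets disagreed, and the one with the largest variance gave 0.25 as labelled. Rspo3, a secreted enhancer of Wnt signals, was higher by 3.79 (adjusted p = 0.0223). Axin2, a widely used target gene, differed by -0.43 (adjusted p = 0.855). Of 23 genes of Bmp, Fgf and Egf signalling, Egf (4.27, adjusted p = 0.000803) and Fgf1 (2.79, adjusted p = 0.00515) were called higher, where 1.5% of all genes were. Bmp4 and Fgf8, the latter needed for the survival of early nephron cells, fell by 2.22 (adjusted p = 0.0154) and 3.30 (adjusted p = 0.0172), where 2.57% of all genes were called lower. Fgf8 was also on the patterning list. With 1 more array left out, the call of Bmp4 was lost without renal corpuscle replicate 3 or S-shaped body replicate 1 and that of Fgf8 without renal corpuscle replicate 3 or S-shaped body replicate 2 or 4 (adjusted p up to 0.147 and 0.0732). Of these genes, Fgf1 was called as labelled too, with 2.33 (adjusted p = 0.0384), a call lost in 5 of 8 fits that left out 1 array, all but those without renal corpuscle replicate 1 or either doubted array (adjusted p up to 0.11).

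Genes of the distal part of the S-shaped body were often lower. Of 21 genes of the loop and distal precursor list, 10 were called lower and none higher without the 2 arrays, with a median of -1.87, and 2 were called lower as labelled, with a median of -1.61. The shares of all genes called lower were 2.57% and 0.477%. In this list renal corpuscle replicate 4 had a mean of 9.80, between the other corpuscle arrays (8.60 to 9.38) and the S-shaped body arrays (10.53 to 11.10), and S-shaped body replicate 3 lay with its own group at 10.66. Among the 10 called lower, Pou3f3 was also on the patterning list, Lgr5 on the Wnt list and Wfdc2 on the Bowman's capsule list. The calls of Pou3f3, Sim1, Emx2 and Tmem52b were each lost in 5 of 6 fits with 1 more array left out. That of Wfdc2 was lost in 4 of these fits. Irx2, an Iroquois factor of the intermediate and distal nephron (1426298_at), stood at 7.35, 5.85, 8.48 and 10.27 in corpuscle arrays and 11.04, 11.16, 11.54 and 11.13 in S-shaped body arrays. The groups did not overlap even with all 8 arrays, and the gene fell by 3.23 (SE 0.67, adjusted p = 0.0192) as labelled and fell by 3.88 (SE 0.69, adjusted p = 0.000757) without the 2 arrays. As labelled the call was lost without S-shaped body replicate 4 (adjusted p = 0.0545). Its relative Irx3 fell by 3.03 (adjusted p = 0.0054) and Tfap2b, a factor of distal tubule, fell by 4.03 (adjusted p = 0.0144), both only without the 2 arrays. These calls were lost without S-shaped body replicate 2, and that of Tfap2b also without renal corpuscle replicate 3 (adjusted p up to 0.052 and 0.102). The tight junction gene Cldn10 was called as labelled alone, and fell by 2.11 (adjusted p = 0.0497), a call lost in 6 of 8 fits that left out 1 array, all but those without renal corpuscle replicate 2 or S-shaped body replicate 2 (adjusted p up to 0.144), and gave -1.44 (adjusted p = 0.151) without the 2 arrays. Later markers of the loop did not pass: Slc12a1, the salt transporter of the thick ascending limb, differed by 1.64 (adjusted p = 0.447) and Umod, the urinary protein uromodulin, by -0.51 (adjusted p = 0.882).

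Proximal tubule genes were mixed. Of 29 measured genes, 2 were called higher and 4 lower without the 2 arrays, where 1.5% of all genes were called higher and 2.57% lower, and 2 were called lower as labelled, where 0.477% of all genes were. Of the 4, Cdh6 and Osr2 were also on the patterning list. Slc2a2, the glucose transporter of the proximal tubule (1449067_at), stood at 6.19, 5.49, 9.84 and 7.83 in corpuscle arrays and 11.54, 11.30, 12.66 and 12.11 in S-shaped body arrays. All 4 S-shaped body values lay above all 4 corpuscle values, with the highest in replicate 3, the array with the high proximal tubule mean. The gene fell by 4.56 (SE 0.94, adjusted p = 0.0192) as labelled and fell by 4.47 (SE 1.10, adjusted p = 0.0159) without the 2 arrays. Its calls were lost without S-shaped body replicate 4 in both sets and, of the 3 against 3 arrays, also without renal corpuscle replicate 1 or 2 (adjusted p up to 0.055 and 0.0672). Cltrn, the partner collectrin of amino acid transporters, stood at 7.34, 7.38, 5.29 and 10.79 in the corpuscle and 11.47, 10.81, 12.75 and 11.78 in the S-shaped body. It fell by 4.00 (SE 0.78, adjusted p = 0.0147) as labelled and fell by 4.68 (SE 0.75, adjusted p = 0.000242) without the 2 arrays. The call as labelled was lost without renal corpuscle replicate 3 (adjusted p = 0.0702). Slc7a9, an amino acid transporter, and the water channel gene Aqp1, which were called higher, differed by 3.86 (adjusted p = 0.0122) and 1.96 (adjusted p = 0.0476). With 1 more array left out, the call of Slc7a9 was lost without renal corpuscle replicate 3 or S-shaped body replicate 1 (adjusted p up to 0.123), and that of Aqp1 in 5 of 6 fits, all but the one without renal corpuscle replicate 2 (adjusted p up to 0.252). Hnf4a, the nuclear receptor of proximal tubule fate, differed by -2.34 (adjusted p = 0.152), and Cubn by -0.64 (adjusted p = 0.771). Of 22 genes of epithelial junctions and keratins, Epcam (-3.09, adjusted p = 0.0231) and Cldn6 (-3.13, adjusted p = 0.0181) were called lower. These calls were lost in 5 and 4 of 6 fits with 1 more array left out, for both genes without renal corpuscle replicate 1 or 3 or S-shaped body replicate 1 or 4, and for Epcam also without S-shaped body replicate 2 (adjusted p up to 0.226 and 0.0935).

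In a smaller set of genes the tissues also separated as labelled. Of the 91 genes called, 57 did not overlap between the 4 and 4 arrays, where 3.56% of all genes did not overlap. The calls were made from the same values, so this count is not separate evidence of a difference. Ptger2, a receptor for prostaglandin E2 (1449310_at, chromosome 14), was the largest call higher, with 11.20, 9.56, 10.19 and 11.56 in corpuscle arrays and 6.47, 5.94, 5.56 and 6.02 in S-shaped body arrays. Renal corpuscle replicate 4 had the highest value of all, and S-shaped body replicate 3 the lowest. The difference was 4.63 (SE 0.96, adjusted p = 0.0192) as labelled and 4.17 (SE 1.13, adjusted p = 0.0271) without the 2 arrays. The call as labelled was lost without S-shaped body replicate 4 (adjusted p = 0.0545), and the other one in 5 of 6 fits that left out 1 more array (adjusted p up to 0.0955). Ptger4, another receptor for the same prostaglandin, stood at 14.70, 14.08, 14.71 and 13.54 in the corpuscle and 6.33, 10.49, 14.20 and 11.04 in the S-shaped body. Here S-shaped body replicate 3 lay with the corpuscle, the groups overlapped, and the difference was 3.74 (adjusted p = 0.0397) as labelled and 5.20 (SE 0.86, adjusted p = 0.000393) without the 2 arrays. As labelled the call of Ptger4 was lost in 5 of 8 fits that left out 1 array (adjusted p up to 0.189). In no other component did the mean level of Ptger2 exceed 9.04, the mean of the medullary interstitium, which also had the highest mean of Ptger4 outside this comparison, at 12.97.

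Ak1, the adenylate kinase that balances adenine nucleotides, stood at 11.89, 11.28, 13.19 and 11.46 in corpuscle arrays and 9.67, 8.57, 10.47 and 8.47 in S-shaped body arrays. It was higher by 2.66 (SE 0.48, adjusted p = 0.00822) as labelled and by 3.22 (SE 0.52, adjusted p = 0.000309) without the 2 arrays. A second probe set of Ak1 gave only 0.32 without the 2 arrays and was called in neither set. Dnajc22, a membrane protein of the DnaJ family (1460468_s_at), stood at 5.55, 6.19, 6.95 and 6.42 in the corpuscle and 10.69, 9.82, 11.56 and 9.95 in the S-shaped body. It fell by 4.23 (SE 0.65, adjusted p = 0.00121) as labelled and fell by 3.92 (SE 0.74, adjusted p = 0.00149) without the 2 arrays. A second probe set of this gene gave -1.47 as labelled and -1.54 without the 2 arrays, and was called in neither. The other genes among the 12 largest non-overlapping calls lower as labelled included Tfcp2l1, a factor of distal and collecting duct epithelium, which fell by 3.55, and the DNA repair helicase gene Rad54b, which fell by 3.47 (adjusted p = 0.0381). These calls were lost in 3 and 6 of 8 fits that left out 1 array (adjusted p up to 0.1 and 0.141): without renal corpuscle replicate 3 or S-shaped body replicate 1 or 4 for both, and without renal corpuscle replicate 1 or S-shaped body replicate 2 or 3 for Rad54b. Rad54b was not called without the 2 arrays, with -3.10 (adjusted p = 0.0563). For Rmdn1 and Smim22, also in that group, the other probe sets had the opposite sign, so their calls are uncertain. Slc35f2, Rnf115, Filip1l and Sipa1l3 completed the 12, with differences of -3.31, -3.26, -3.24 and -3.09. With 1 array left out these calls were lost in 2, 6, 2 and 0 of 8 fits. Only 8 genes called higher as labelled did not overlap: beside Ptger2, Ak1 and Fgf1 they were Fam241a (3.61), Syde2 (3.35), Rab3gap2 (2.01), Acyp2 (1.55) and Get4 (1.35), the last 5 with calls lost in 5, 4, 2, 4 and 5 of 8 such fits. Without the 2 arrays, second probe sets gave -0.46 for Slc35f2, -0.14 for Rnf115, 0.92 for Rab3gap2, 0.17 for Get4 and 3.38 for Fam241a. The 2 other probe sets of Fgf1 gave 0.17 and 1.54. None of these probe sets was called.

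Other genes among the largest non-overlapping calls without the 2 arrays came from no list. Among those higher were Htra1, a secreted serine protease, by 6.20 (SE 1.14, adjusted p = 0.00105), Vip, the vasoactive intestinal peptide, by 5.08 (adjusted p = 3.82e-06), and Cpne8, of the calcium-dependent copine family, by 4.89 (adjusted p = 3.82e-06). Cd36, a scavenger receptor for fatty acids, was higher by 4.79 (adjusted p = 0.0062) and Mfap4, a protein of extracellular microfibrils, by 4.78 (adjusted p = 0.00224), the latter with its highest value in renal corpuscle replicate 2. Iyd and Ajap1 were higher by 5.49 and 5.00. The second probe sets of Ajap1 and Cd36 each gave 1.33 and were not called. Among those lower, Has3, a hyaluronan synthase, fell by 6.03 (SE 1.10, adjusted p = 0.000952), the membrane-bound carbonic anhydrase gene Car4 fell by 4.72 (adjusted p = 3.82e-06), and the potassium channel gene Kcnc2 fell by 5.60 (adjusted p = 0.00833). Lratd2, Tmed6, Depdc7, Spon1 and Eva1a had differences of -4.77, -4.72, -4.61, -4.56 and -4.53. The 3 other probe sets of Spon1 gave -1.98 to -0.41 and none was called. With 1 more array left out, the calls of Kcnc2 and Tmed6 were lost without renal corpuscle replicate 3 (adjusted p = 0.0507 and 0.064), that of Ajap1 without this array or S-shaped body replicate 4 (adjusted p up to 0.0729) and that of Cd36 without S-shaped body replicate 1 (adjusted p = 0.051). In Car4, S-shaped body replicate 3 stayed with its group at 11.51, and the gene was also called as labelled, with -3.50 (adjusted p = 0.00822). In Has3 the same array lay at 6.01, with the corpuscle, and the gene was not called as labelled (-2.82, adjusted p = 0.347). In both genes renal corpuscle replicate 4 lay near the S-shaped body arrays, at 11.70 for Car4 and 12.83 for Has3.

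Cell cycle genes were partly lower. Of 25 measured genes, 4 were called lower without the 2 arrays and 1, Cdkn1c, higher, with a median of -0.75, where 2.57% of all genes were called lower and 1.5% higher, and none was called as labelled. Of the genes called, Ccnd1 was also on the patterning list and Cdkn1c on the list of podocyte transcription regulators. Top2a, the topoisomerase of dividing cells, fell by 2.07 (SE 0.48, adjusted p = 0.0103), and the proliferation marker Mki67 fell by 1.33 (adjusted p = 0.0367). The mitotic checkpoint kinase gene Bub1 fell by 3.18 (adjusted p = 0.005) and the cyclin gene Ccnd1, a Wnt and growth factor target, fell by 1.45 (adjusted p = 0.0246). Of these calls, that of Bub1 was lost without renal corpuscle replicate 3 (adjusted p = 0.0957), and those of Top2a, Ccnd1 and Mki67 in 3, 3 and 5 of the 6 fits that left out 1 more array. Pcna, a replication clamp, differed by -0.85 (adjusted p = 0.123). Cell cycle means were 12.64, 12.98, 12.06 and 13.08 in the corpuscle arrays and 13.11, 13.19, 12.42 and 13.35 in the S-shaped body arrays, with both doubted arrays on the side of the other tissue.

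Markers of other cells changed in a few members. Of 11 macrophage genes, Csf1r, the receptor of the macrophage growth factor, and the lysozyme gene Lyz2 were called higher and the pan-leukocyte gene Ptprc lower without the 2 arrays. Of all genes, 1.5% were called higher and 2.57% lower, and these shares apply to the other lists below as well. Csf1r stood at 12.87, 11.73, 14.49 and 9.81 in corpuscle arrays and 8.10, 10.05, 14.34 and 10.88 in S-shaped body arrays, a difference of 3.35 (SE 0.95, adjusted p = 0.0371), while its list had a median of 0.32 and C1qa, another macrophage gene, differed by -0.19 (adjusted p = 0.956). The calls of Csf1r and Lyz2 were also lost with a median shift, and in the 6 fits that left out 1 more array the calls of Csf1r, Lyz2 and Ptprc were lost in 4, 5 and 4 (adjusted p up to 0.243, 0.278 and 0.159). The calls held only without renal corpuscle replicate 2 for Lyz2, without that array or S-shaped body replicate 4 for Csf1r, and without renal corpuscle replicate 3 or S-shaped body replicate 2 for Ptprc. None of the 18 stromal, 15 nephron progenitor or 6 erythroid genes was called in either set. Of 16 ureteric tip and collecting duct genes, the keratin gene Krt7 was called higher, by 4.06 (SE 0.70, adjusted p = 0.00054), at 12.44, 11.42, 12.52 and 7.90 in the corpuscle and 7.56, 7.84, 12.60 and 8.78 in the S-shaped body. The lower value within the corpuscle group was again that of replicate 4, the pattern of the podocyte genes, whereas Calb1 was high in replicate 2 alone. Of 15 immediate early and heat shock genes, Ier3 was called higher, by 2.75 (adjusted p = 0.0167), a call lost without renal corpuscle replicate 3 or S-shaped body replicate 2 or 4 (adjusted p up to 0.143), and the metabolic list of 16 genes had Ak1 as its one call.

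The other components of the series, whose levels do not enter the contrast although their arrays enter its estimate of spread, were placed on the same scale from 0 to 1 with the 640 genes called without the 2 arrays. The renal vesicle, the stage before the S-shaped body, lay at a median of 0.03 over the 236 genes called higher and 0.13 over the 404 called lower, so on both it was near the S-shaped body. The ureteric bud lay at 0.05 and 0.06 and the ureteric tip at 0.15 and 0.24. The metanephric mesenchyme lay at 0.29 and 0.29, the medullary collecting duct at 0.30 and 0.47, the proximal tubule at 0.37 and 0.43 and the medullary interstitium at 0.45 and 0.54. On the genes called higher in the corpuscle, no component had a median above 0.45. These genes were chosen for high levels in the corpuscle arrays that set 1, so lower positions of the other components are partly fixed by that choice. For single genes, Col4a4 had component means of 5.52 to 8.23 outside this comparison, Lhx1 was at 12.99 in the renal vesicle and 12.28 in the ureteric bud, and Hes5 at 10.31 in the renal vesicle and 7.17 to 8.64 in the others. Slc2a2 and Cltrn had their highest component means in the proximal tubule, at 14.21 and 13.52.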

How the data were processed

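RNA from 9 tissue components of embryonic mouse kidney, 37 samples in all, was measured on Affymetrix arrays. Per the submitters' processing notes, the deposited values are signal intensity computed by the authors with GCOS, whose version is not given in the sources used here. The 2% trimmed mean was 1500 in every array, so the values were globally scaled and linear. Depth has no meaning for arrays, and their number limits the precision.

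The following was computed here with limma 3.58.1 in R 4.3.3. Intensities plus an offset of 34.62, their 20th percentile, were transformed to log2 and quantile normalized over all arrays. Probe sets above the pooled median (7.89) in at least 2 arrays were kept. Of 45101 probe sets, 34945 had 1 gene symbol, 932 several and 9160 none, after 64 controls were set aside, and 34741 matched RefSeq. Each gene is represented by its probe set of highest mean, which left 15709 genes, 7499 of them with several probe sets. The offset makes differences of weakly expressed genes smaller. A model with 1 mean per component and an intensity trend was fitted to 37 arrays (28 residual degrees of freedom), and to 35 without renal corpuscle replicate 4 and S-shaped body replicate 3 (26). The script was tested on simulated data.

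The members and gene lists were chosen with earlier results of these data known. Genes named are the 12 largest non-overlapping calls in each direction of each fit (8 where only 8 were higher as labelled), members of 24 lists, and markers that place the arrays. Alternatives tried were 2 other offsets, a median shift, other filters and probe set choices, array weights, fits of only the arrays compared, the title's date code as a fixed or a random effect, the number in the titles as a replicate block, and leaving out each array. Promoter sequences are RefSeq's, on GRCm38.p6. Detection calls were not used here.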

Additional observations from a re-analysis of the deposited data

Results flagged for a closer look

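In 78 groups of 4 values (27 genes and 12 lists, each in both tissues), the gap between the most distant array and its nearest neighbour, as a share of the group's range, was set against Dixon's critical value for 4 values. It was larger in 13. Chance gives about 1 group in 20, but this count is not a test against that rate: the values of different genes in 1 array are not independent, and the genes include those by which the 2 doubted arrays were recognised. In 9 of the 13 the distant array was S-shaped body replicate 3, and in 2 renal corpuscle replicate 4. It stood apart from its group in Nphs1 (0.989), Thsd7a (0.856) and Col4a4 (0.972), which were higher in it, and in Lama1 (0.889), Lhx1 (0.869) and Jag1 (0.904), which were lower. Its mean levels of the podocyte list (0.876), the proximal tubule list (0.945) and the stromal list (0.840) were also apart and above the other 3 S-shaped body arrays. Renal corpuscle replicate 4 stood apart with low values of Ptpro (0.856) and Col4a4 (0.852). Renal corpuscle replicate 2 stood apart with a high nephron progenitor mean (0.873) and with Cubn (0.934), which was higher in it than in the other corpuscle arrays.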

How the results depend on the processing

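As labelled, the count of 91 genes stayed within 1.5 times, at 75 to 94, under both other offsets, no filter, a filter at 4 arrays, other choices of probe set and array weights, though only 34 of the 91 were among the 75 called with array weights. It was 230 with a median shift, 43 with the date code as a random block, 640 without both doubted arrays, and 0 with only the 8 arrays (905 genes at an unadjusted p below 0.05 by limma), 0 with the date code as a fixed term (796) and 0 with the title number as a replicate block (1548). Leaving out 1 array gave 21 to 371 genes, with 21 without S-shaped body replicate 4, 22 without renal corpuscle replicate 3, 26 without S-shaped body replicate 1, 228 without S-shaped body replicate 3, 304 without renal corpuscle replicate 4 and 371 without renal corpuscle replicate 2. Without the 2 doubted arrays, the count of 640 was 529 to 799 under the other offsets, median shift, filters, probe set choices and the random block, but 412 with array weights, 43 with only the 6 arrays, 1 (Itgb5) with the date code as a fixed term and 11 with the replicate block. Leaving out 1 more array gave 245 (renal corpuscle replicate 3) to 1390 genes (renal corpuscle replicate 2), with 313 without S-shaped body replicate 4, 346 without replicate 1 and 419 without replicate 2. The title of renal corpuscle replicate 4 gives an incomplete date, which was coded as none. One reading of it would match S-shaped body replicates 1, 3 and 4, and this was not tested. No other date code held both tissues, so no value within a date could be had, and the fixed term links them only through other components. Same-numbered arrays had correlations of deviations of -0.07, -0.08, 0.165 and 0.091, and differently numbered arrays of -0.169 to 0.18. The deviations were taken from group means that include the doubted arrays. These correlations cannot decide whether the title numbers pair the samples. Without the doubted arrays, second probe sets of Pax8 (-0.73), Pou3f3 (-0.91), Top2a (-0.87), Rspo3 (0.65), Podxl (2.09), Ptpro (1.32) and Lhx1 (-2.17) were not called. The other probe sets of Bub1 (-1.2), Epcam (-2.03), Tfap2b (-2.83), Ccnd1 (-2.32 and -1.51), Csf1r (0.48 and 2.04) and Tpm2 (0.03 to 1.97) were not called either. As labelled the sign was opposite for that of Bub1 and for part of those of Ccnd1 and Tpm2. Without the doubted arrays, second probe sets of Wnt4, Hes5, Vegfa, Thsd7a and Col4a4 were called in the same direction. Signs turned as labelled for Ccnd1 (0.024) and Fzd4 (0.25) with the most variable probe set, for Smim22 without _x_at and _s_at probe sets (0.19, and 0.79 without the doubted arrays), for Wt1 with the fixed date term (-0.20 in both) and for Tmem52b without renal corpuscle replicate 3 (0.164, within a range down to -2.615 over the arrays left out). The cause of these changes was not tested. Of the other values for named genes, apart from those that leave out 1 array, 1040 as labelled and 862 without the doubted arrays kept direction and side of the threshold, 126 and 294 lost the call, and 89 and 4 gained it. Values that kept their side include those of genes that were never called, which had no call to lose. The values as labelled, and so the 89 gains, include the fit without both doubted arrays.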

Other observations

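In the fit of only the 6 arrays, 4 of the 43 genes called were not among the 640, and they are named here after their values were seen. Foxd1, a forkhead factor of stroma and podocytes, was higher in the renal corpuscle by 2.90 (limma, adjusted p = 0.0382), the peptidase gene Dpp4 by 2.14 (adjusted p = 0.0315) and the surface protein gene Tm4sf1 by 2.32 (adjusted p = 0.0362). Cdh1, the epithelial adhesion protein E-cadherin, fell by 2.72 (adjusted p = 0.0387).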
